A study of Mus musculus with 2 samples.

Results

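The cells described here are 978 barcodes of the Ets1-deleted thymus library that carried the transcripts of absorptive cells of the distal small intestine, named ileal enterocyte-like from their genes. They were chosen by a rule on measured counts. A barcode had to hold at least 500 genes, at most 10% mitochondrial UMIs (unique molecular identifiers, 1 per counted transcript) and no UMI of Cd3d, Cd3e or Cd3g. In addition 3 gene sums together had to make up at least 3% of its UMIs: E (Fabp6, Fabp2, Fabp1 and Apoa1), G (the goblet cell genes Zg16, Agr2, Muc2, Tff3, Fcgbp and Clca1) and P (the Paneth cell defensins, Lyz1 and Itln1). E had to be the largest of the 3. The 978 members were 16.6% (exact Clopper-Pearson 95% interval 15.6 to 17.5) of the 5903 barcodes of that library past the gene and mitochondrial filters, and 42.4% of its 2306 such barcodes without CD3 UMIs. Of 7395 control barcodes past the same filters 0 met the rule, which allows a share of up to 0.0406%. The labels name no gut tissue for either sample. Whether gut epithelium entered the cKO sample during collection was not tested, and with 1 library per genotype such an entry and a difference between genotypes cannot be told apart, so the count of 978 against 0 is one between these 2 libraries.

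The study compared 2 single-cell libraries of YFP+ cells sorted from mouse thymus. The control library came from Tbx21Cre Rosa26-YFP+ mice and the other, called cKO, from Tbx21Cre Ets1F/F Rosa26-YFP+ mice, with 2 mice pooled in each. Both genotypes express Cre from Tbx21, which encodes the T cell transcription factor T-bet, and Cre switches on YFP; the cKO mice carry floxed Ets1 in addition. With 1 library per genotype and no way to tell the pooled mice apart there was no replicate check, no test was made, and all intervals are exact 95% intervals of counting error only. The labels name no age, sex or strain of the mice.

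Enterocytes are the absorbing cells of the intestinal villus. They break down sugars and peptides with enzymes of the brush border, a carpet of actin-filled microvilli, and export absorbed fat on apolipoproteins. In the ileum they also recover bile acids: Slc10a2 takes them up from the lumen, FABP6, the ileal bile acid binding protein, carries them through the cell, and the Slc51a and Slc51b pair releases them towards the blood. Fabp2 encodes the intestinal fatty acid binding protein, and Apoa1 the main apolipoprotein of high density lipoprotein. Goblet cells secrete mucus and Paneth cells secrete defensins from the crypt base.

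The promoters of Fabp6, Fabp2 and Reg3b are shown because the first 2 genes divide the members below and Reg3b moved with Fabp6. Each runs 250 bases before to 50 after the start of the RefSeq transcript on GRCm38.p6, at chr11:43601513-43601812 on the minus strand for Fabp6, chr3:122894822-122895121 on the plus strand for Fabp2 and chr6:78370635-78370934 on the plus strand for Reg3b. Capitals mark matches on either strand to the core letters of factors that act in intestinal epithelium. These were CAAAGNNCA for HNF4, TTTATG for CDX, GTTAAT for HNF1, AGATAA for GATA and TCANTGA for the bile acid receptor FXR.
Fabp6: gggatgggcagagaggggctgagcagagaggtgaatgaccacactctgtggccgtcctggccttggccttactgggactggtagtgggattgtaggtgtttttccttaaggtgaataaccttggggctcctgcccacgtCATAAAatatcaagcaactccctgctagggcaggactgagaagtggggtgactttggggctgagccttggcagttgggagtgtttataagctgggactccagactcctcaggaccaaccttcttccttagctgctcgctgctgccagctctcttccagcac
Fabp2: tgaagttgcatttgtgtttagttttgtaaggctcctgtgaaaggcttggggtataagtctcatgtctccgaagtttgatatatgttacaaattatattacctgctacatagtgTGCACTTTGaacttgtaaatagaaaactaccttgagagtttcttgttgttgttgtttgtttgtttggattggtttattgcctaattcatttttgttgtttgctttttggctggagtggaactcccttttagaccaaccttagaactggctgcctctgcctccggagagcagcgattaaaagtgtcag
Reg3b: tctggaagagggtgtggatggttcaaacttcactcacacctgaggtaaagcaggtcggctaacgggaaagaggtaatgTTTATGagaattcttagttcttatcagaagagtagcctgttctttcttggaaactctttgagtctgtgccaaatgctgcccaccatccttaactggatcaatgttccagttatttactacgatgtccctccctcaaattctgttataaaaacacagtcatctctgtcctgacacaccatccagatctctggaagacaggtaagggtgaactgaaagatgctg
Counted from the start as 0, the Fabp6 promoter held 1 of these matches, the CDX letters at -111 to -106 on the minus strand. In Fabp2 the single match was the HNF4 letters at -137 to -129 on the minus strand, and in Reg3b it was the CDX letters at -172 to -167 on the plus strand. Of the 75 genes in the enterocyte lists used below, 61 had a promoter in the RefSeq table. HNF4 letters occurred in 10 of these 61 (16.4%) and in 6.37% of all 27025 promoters of the table. The corresponding shares were 19.7% and 12.1% for CDX, 16.4% and 7.20% for HNF1, 14.8% and 11.4% for GATA, and 4.92% and 7.17% for FXR. A match is a description of letters and not evidence of a bound site. Only exact letters were searched, so sites that depart from them were not marked, and a missing match is not evidence of a missing site. The Fabp6 promoter holds aggtgaataacct, a near inverted repeat spaced by 1 base, which the FXR letters do not match. The FXR shares carry the same limit.

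The members were low in depth. UMIs per member ranged from 695 to 14075 with a median of 1278, against a median of 7008 in CD3-positive cells of the same library. Genes per member had a median of 723.5, and mitochondrial UMIs a median of 7.36% against 2.57% in CD3-positive cells. The other gut cells of the library, 136 Paneth-led and 424 goblet-led barcodes, lay closer, at 1538.5 UMIs and 5.80% mitochondrial. All members together held 1734154 UMIs, 5.04% of those in kept cKO cells. Depth and mitochondrial share therefore move with the cell class, and their part in the comparisons was not tested. The deposited barcodes of the 2 libraries shared 29 sequences, 3 of them members. Doublets were not removed.

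**Figure D1:**
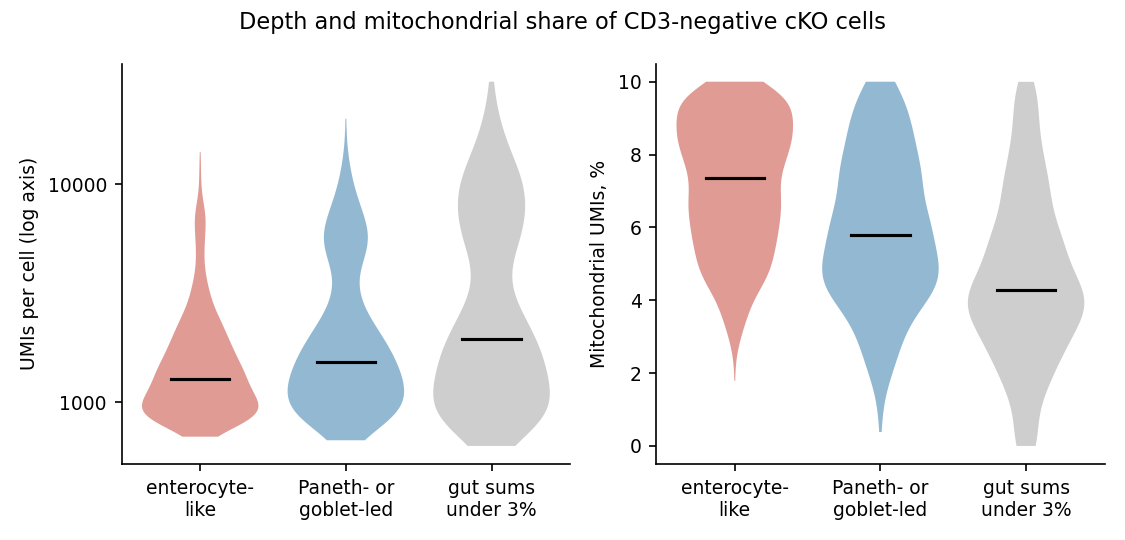
UMIs per cell (left, log axis) and percent mitochondrial UMIs (right) in CD3-negative cKO cells that were enterocyte-like (n = 978), Paneth- or goblet-led (n = 560) or below 3% in the gut sums (n = 758). Widths are densities and bars medians; the enterocyte-like cells have the lowest median depth, 1278 UMIs, and the highest median mitochondrial share, 7.36%.

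The rule's own genes describe how strongly the members were of this kind. E took up 1.96% to 26.5% of a member's UMIs, with a median of 7.59%. Fabp6 made up 0 to 13.4% of a member's UMIs (median 2.57%), Fabp2 0.0357% to 20.8% (median 2.91%) and Apoa1 0 to 7.73% (median 1.41%). Fabp1, the liver-type fatty acid binding protein, was a minor part of the sum, with 183 UMIs in all and at least 1 UMI in 122 members. Goblet transcripts were common too: 118 members (12.1%) had no G UMI, 284 (29.0%) no P UMI, and 97 (9.92%) neither. In 655 members (67.0%) E was at least 2 times each other sum. The edge of the set was not empty. The member nearest to the threshold of 3% stood at 3% and the nearest barcode outside at 2.89%; 28 members lay between 3% and 4%, and 35 E-led barcodes between 2% and 3%. In 20 members E led the next sum by only 1 or 2 UMIs, and in 18 Paneth- or goblet-led barcodes it trailed by as little.

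**Figure D2:**
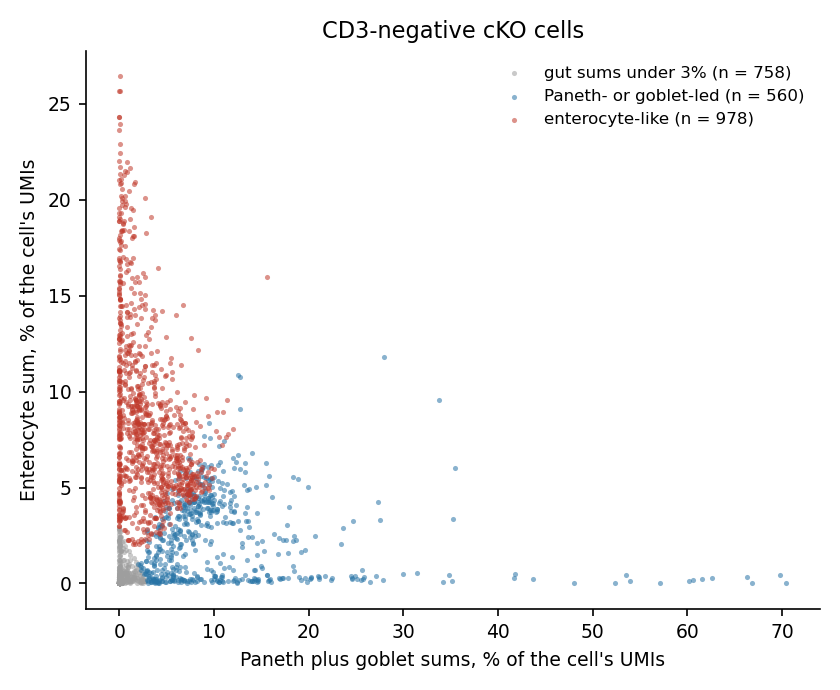
Each point is 1 CD3-negative cKO cell, with the summed Paneth and goblet genes (horizontal axis) and the enterocyte genes (vertical axis), both in percent of the cell's UMIs. The enterocyte-like cells spread from cells with almost no Paneth or goblet UMIs, up to 26.5% on the vertical axis, down to a dense region that adjoins the Paneth- or goblet-led cells.

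The name was checked against markers. Of the 4 fixed for it, Fabp6 and Fabp2 belong to the rule; Epcam, an adhesion molecule of epithelial cells, and Cdx2, the transcription factor of intestinal identity, do not. After each cell was thinned to 1000 UMIs, which left out 295 members, 92.5% of the remaining 683 held an Epcam UMI and 11.3% a Cdx2 UMI; before thinning the shares over all members were 94.99% and 19.7%. In CD3-positive cKO cells, thinned alike from a median of 7008 UMIs, the shares were 2.56% and 0.309%. In the other gut cells, thinned alike, they were 85.7% and 9.07%. Epcam and Cdx2 thus set the members apart from T cells but hardly from the other gut cells. Epcam was at 3283 CPM (UMIs of the gene over all UMIs of the pool, scaled to a total of 1000000) in members, 1953 in the other gut cells, 742 in CD3-negative cells below 3% in the gut sums and 28.0 in CD3-positive cKO cells. Cdx2 ran in the same order, at 148, 93.0, 40.1 and 1.29 CPM. The 10 genes with the highest fold against all other cKO cells describe the members and are no support for the name: Fabp6 was among them, as a gene of the rule, and the others were Akr1b7, Btnl1, Slc13a1, Apoc3, Eci3, Mme, Apoa4, Cyp3a11 and Tmigd1.

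The labels give the tissue as thymus and the sort as YFP+, so the markers of those cells were read in the members. Of 10 genes of thymic epithelium 5 had 0 UMIs: Foxn1 and Aire, transcription factors of that tissue, the thymoproteasome subunit Psmb11, and the keratins Krt5 and Krt14. A count of 0 allows up to 1.73 CPM. The list summed to 39.8 CPM, against 32.1 in the other gut cells and 33.6 in CD3-positive cKO cells, and most of it was Ly75 (24.8 CPM) and Ccl21a (12.7 CPM). Tbx21, whose promoter drives the Cre, also had 0 UMIs in members and stood at 114 CPM in CD3-positive cKO cells. The pan-leukocyte gene Ptprc was held by 26 members (2.66%); after thinning the share was 1.46% in members and 72.5% in CD3-positive cKO cells. Ets1, the targeted gene, was at 34.6 CPM (60 UMIs) in members, with no control cells of this kind to set it against.

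Markers of the neighbouring segments of the gut were uneven. The colonic list of 8 genes had 3 at 0, Car1, Slc37a2 and Hoxb13, and Aqp8 at 1 UMI, while Slc26a3, a chloride exchanger, reached 75.5 CPM. In the proximal list Gata4, the transcription factor of duodenum and jejunum, had 8 UMIs (4.61 CPM), and the iron genes Cybrd1 and Slc40a1 had 4 each. Apoa4 (1144 CPM) and the lactase gene Lct (285 CPM), also on that list, were well above these. The proximal list of 8 genes summed to 1589 CPM in members and 284 in the other gut cells. Within the members it was at 440 CPM in those where Fabp6 was the highest E gene and 2600 in those where Fabp2 was. The colonic list leaned the other way, at 160 and 94.8 CPM in the same order. Transcripts listed as proximal were thus present in the cells named ileal, mostly in the Fabp2-led ones. Apoa4 made up most of the proximal sum. A list of 6 genes of the villus tip split as the proximal list did, at 454 CPM in Fabp6-led and 2551 in Fabp2-led members. It shares Apoa4 and Ada with the proximal list, and Apoa4 made up most of its sum as well. The villus tip list is therefore no separate observation. Whether the split follows place along the gut or along the villus was not tested.

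Other cell types were read in the same way. The enteroendocrine list summed to 310 CPM in members and 482 in the other gut cells; 97.0% of the 67 Nts UMIs of members were in 1 cell. Of 6 tuft cell genes 4 were at 0. The T cell list summed to 125 CPM in members and 11816 in CD3-positive cKO cells, and the B and plasma cell list to 1574 CPM in members, 1122 in the other gut cells and 17846 in CD3-negative cells below 3%. The stroma list was at 1088, 674 and 2704 CPM in the same pools, the myeloid list at 133, 81.3 and 1102, and the erythroid list at 43.8, 62.2 and 13.4. The stress list was close as a sum, at 2428, 2770 and 2746 CPM. Its single genes ranged from 0.164 to 2.63 times their level in the CD3-negative cells below 3%. The metal list, mostly the ferritin gene Fth1, was at 7234, 4726 and 4489 CPM. Low levels of immune and stromal transcripts were thus present in the members, and their source was not tested.

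The next comparison set the members against the 560 Paneth- or goblet-led cells. The rule separates these classes, so the counts describe the classes it made and are not evidence for them. A gene was called when its CPM differed at least 2-fold, reached 50 CPM in the higher pool and had an interval of the ratio that excluded 1, with the rule's genes left out. Listed genes under 50 CPM in both pools were not tested, and a gene could enter through 1 pool alone. Of 3089 genes tested, 491 (15.9%) were higher in members and 249 (8.06%) lower; the median ratio of all was 1.07.

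Genes of bile acid handling were higher in 5 of 6 tested (8 listed), with a median ratio of 5.01. The exporter subunit Slc51a was at 1138 CPM in members and 230 in the other gut cells, 4.93-fold higher (4.40 to 5.56). Its partner Slc51b was at 548 and 82.7 CPM, 6.61-fold (5.48 to 8.08). The importer Slc10a2 was at 213 and 35.5 CPM, 5.94-fold (4.47 to 8.17). Uptake and release were thus both represented at several times the level of the other gut cells. The nuclear receptor Nr1h4, which encodes FXR, was 3.09-fold higher at 91.7 CPM, and the apical exporter Abcc2 5.08-fold at 70.9 CPM. The hormone gene Fgf15 and the repressor Nr0b2, both FXR targets, were at 49.0 and 18.5 CPM in members, under the 50 CPM minimum. Abcc3, a basolateral exporter, was at 28.3 CPM in members and 52.0 in the other gut cells and was not called.

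Genes of fat absorption were higher in 13 of 14 tested members of the list (18 listed, median ratio 4.05). Apob, the structural protein of chylomicrons, was at 923 CPM against 187. Mttp, which loads fat onto it, was at 424 against 71.8, and Mogat2, which rebuilds triglyceride, at 208 against 46.5. The small apolipoproteins Apoc2 and Apoc3 reached 1389 and 954 CPM, 4.37-fold and 6.03-fold above the other gut cells. The gene tested and not called was Acaa2, a mitochondrial thiolase of fatty acid oxidation, at a ratio of 1.96.

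Brush border hydrolases were higher in 13 of 14 tested (16 listed, median ratio 4.65) and nutrient transporters in 10 of 10 tested (15 listed, 4.94). Sucrase-isomaltase, Sis, was at 1304 CPM in members and 222 in the other gut cells, 5.86-fold higher (5.22 to 6.62). The aminopeptidase Anpep was at 1208 against 245, and the meprin subunit Mep1b at 740 against 141. The sodium-glucose transporter Slc5a1 was at 547 against 110 CPM and the peptide transporter Slc15a1 at 535 against 93.0. Enpp3, the hydrolase not called (ratio 1.28), had 32.0% of its member UMIs in 1 cell.

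The scaffold of the brush border differed less. Of its 14 genes 12 were higher, with a median ratio of 2.75: the actin bundler Vil1 at 863 against 276 CPM, Pls1 at 808 against 254, the protocadherin Cdhr5 at 777 against 310, and the differentiation keratin Krt20 at 788 against 338. Ush1c and Cdh17 were not called, at 1.79 and 1.89. Genes of epithelium in general had a median ratio of 1.08, near that of all genes, with 0 of 14 higher and 2 lower; Epcam had a ratio of 1.68, Krt8 of 1.39 and Lgals4 of 0.719. The lower pair was Krt18 (470 against 1422 CPM) and Cldn4 (81.3 against 165). Detoxification genes were higher in 11 of 12 tested (15 listed, median ratio 4.47). Among them were Rbp2, which binds retinol, at 1359 CPM, and Cyp3a11, a drug-metabolising cytochrome, at 218 CPM. Of the proximal list 3 genes were tested, Apoa4, Lct and Ada, and all 3 were higher (median ratio 5.51).

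Transcription factors of the intestine were nearly level. Of 10 tested 1 was called, Hnf4g, at 130 CPM in members and 36.9 in the other gut cells, 3.51-fold higher (2.61 to 4.84). Its relative Hnf4a was at 134 and 118 CPM, and Cdx2 had a ratio of 1.59.

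Antimicrobial and immune genes were higher in 5 of 6 tested (12 listed). Reg3b, a secreted lectin that acts on bacteria, was the most abundant nuclear gene in members outside the rule after Actb and Gm42418, at 9232 CPM against 1427, 6.47-fold higher (6.18 to 6.78). It was held by 895 of 978 members and made up 0 to 12.1% of a member's UMIs, with a median of 0.431%. Reg3g was at 2607 against 487 CPM, and Ccl25, a chemokine that draws T cells to the small intestine, at 1112 against 215. Lypd8, which keeps flagellated bacteria off the epithelium, was at 1310 against 1966 and was not called.

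Goblet and Paneth genes outside the rule were lower in 8 of 8 each, with median ratios of 0.214 and 0.287. None of these 16 genes was absent from members. The goblet peptide Spink4 was at 4089 CPM in members and 18878 in the other gut cells, and the Paneth pentraxin Mptx1 at 2632 and 7083. Of the crypt list 0 of 7 were higher and 3 lower, the proliferation genes Mki67 and Top2a and the ion transporter Slc12a2; Olfm4, a stem cell gene, was at 577 and 601 CPM. Across the 8 genes most raised against the other gut cells, Ada led at 13.1-fold, but 45.5% of its 178 member UMIs were in 1 cell, as were 20.6% of those of Ighm, an immunoglobulin gene (7.01-fold). Ighm turned direction where gut sums of 1% sufficed, with a log2 ratio of -0.40. The others were Cst6, Chp2, Ceacam20, Slc13a1, Mme and Prap1, from 7.85-fold down to 6.70-fold, with at most 5.07% in 1 cell. The 8 most lowered were Rep15, Rab27b, Spdef, Ccl6, Galnt12, Atoh1, Creb3l1 and Serpina1b, from 7.60-fold to 5.01-fold lower; Spdef and Atoh1 are transcription factors of secretory cells.

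**Figure D3:**
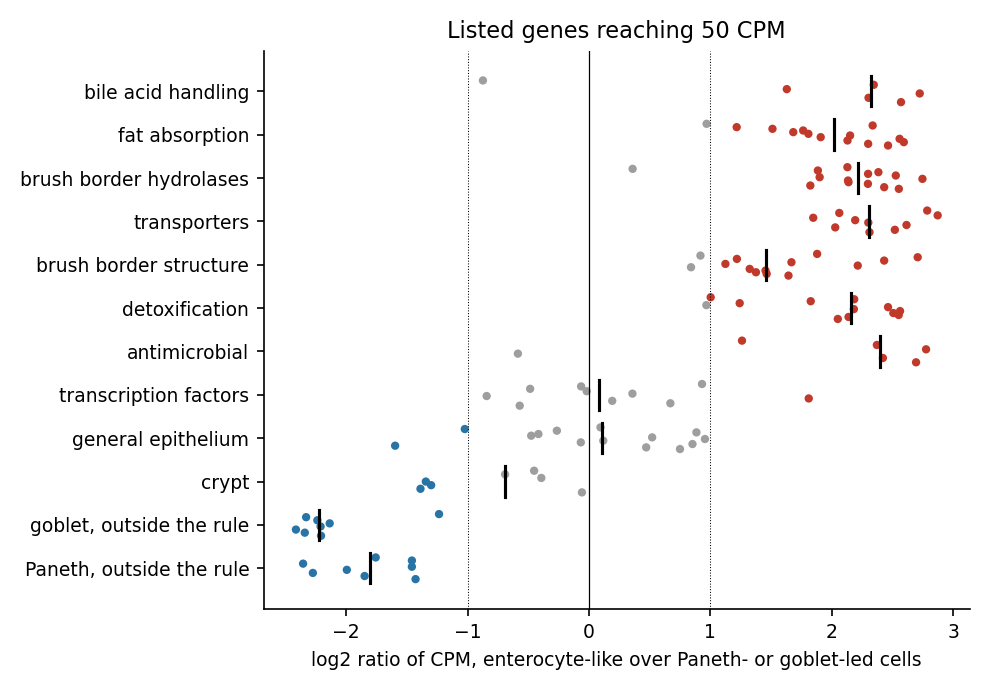
Each point is 1 listed gene that reached 50 CPM, placed by the log2 ratio of its CPM in enterocyte-like over Paneth- or goblet-led cells; red points were called higher, blue lower and grey neither, black bars are list medians and dotted lines mark 2-fold. Bile acid, fat, hydrolase and transporter genes lie to the right, with medians of 4.05-fold to 5.01-fold, general epithelium and transcription factors near 0, and goblet and Paneth genes to the left.

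Against the 758 CD3-negative cells with gut sums under 3%, 891 of 3736 tested genes (23.8%) were higher in members and 928 (24.8%) lower. Of all called genes 49.0% were higher; leaving mitochondrial and ribosomal protein genes out of the totals shifted the median log2 ratio by -0.26 and this share to 33.0%, and leaving out the rule's genes shifted them by 0.19 and to 58.8%. Which direction held more calls thus depended on the scaling. The threshold of 3% on the gut sums made this comparison pool, so the rule itself bears on the low gut transcripts there. A gene could be tested by reaching 50 CPM in the members alone, so the counts by list describe the 2 pools and are no support for the name. All 5 bile acid genes tested (8 listed) were higher (median ratio 18.7), as were 14 of 15 fat genes (18 listed) and 14 of 14 hydrolases (16 listed). So were 14 of 14 brush border genes, 13 of 14 general epithelial genes and 9 of 10 transcription factors (16 listed). Secretory genes outside the rule were higher too, so the contrast was not one of enterocyte genes alone. The goblet genes were higher in 4 of 4 tested (8 listed, median ratio 12.8) and the Paneth genes in 5 of 6 (8 listed, 30.7). Slc51a was 24.4-fold higher, Slc10a2 22.3-fold and Sis 16.5-fold. The lower genes included 7 of 7 MHC class II genes, with Cd74 at 405 CPM in members and 6729 in those cells, 7 of 7 T cell genes tested and 7 of 7 leukocyte genes. Crypt genes were called lower in 1 of 7; Olfm4 was at 577 CPM in members and 929 in those cells. The comparison cells are a mixture, and their part in each ratio was not tested.

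**Figure D4:**
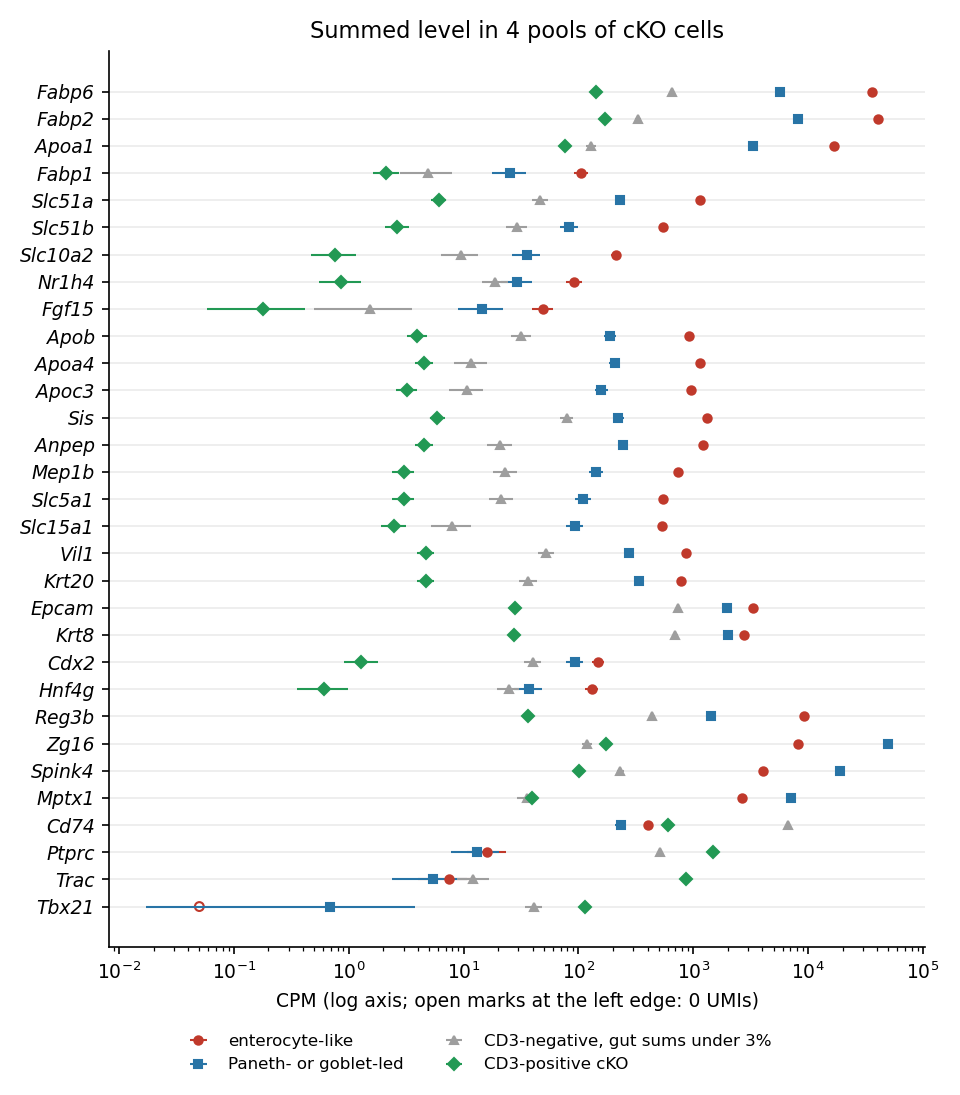
Summed level of 31 genes in CPM (log axis) in enterocyte-like cells, Paneth- or goblet-led cells, CD3-negative cells with gut sums under 3% and CD3-positive cKO cells; bars are exact 95% Poisson intervals and the open mark stands for 0 UMIs. From Fabp6 to Slc15a1 the red points lie several-fold to the right of the blue squares, while Zg16, Spink4 and Mptx1 lie to the left and Ptprc, Trac and Tbx21 are highest in CD3-positive cells.

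Transcripts of the members also appeared outside them, at low level as pool sums. In CD3-positive cKO cells Fabp6 was at 142 CPM, Fabp2 at 171 and Apoa1 at 75.7, between 0.395% and 0.448% of the level in members; in CD3-positive control cells they were at 0.376, 0.626 and 0.470 CPM. The CD3-positive cKO pool included 50 barcodes that met the rule apart from its CD3 condition. In these E had a median of 6.53% of UMIs and reached 18.9%. Over the whole pool the 90th percentile of E was 0.0192%, so the pool levels were not spread evenly over its cells. At least 1 Fabp6 UMI was held by 13.4% of CD3-positive cKO cells, and by 3.48% after thinning to 1000 UMIs, against 0.0153% in control. The ratio of Fabp6 to Fabp2 UMIs was 0.895 (0.886 to 0.905) in members, 0.832 (0.797 to 0.867) in CD3-positive cKO cells, 0.697 (0.678 to 0.717) in the other gut cells and 1.97 (1.83 to 2.12) in the CD3-negative cells below 3%. These intervals treat UMIs as independent and leave out the spread between cells. The CD3-positive value includes the 50 barcodes above. Whether the classes differ beyond the spread between cells was not tested. Over 40 enterocyte genes at 200 CPM or more in members, the level in the other gut cells was 14.4% to 52.9% of that in members (median 22.5%). In the opposite direction, the goblet genes of the rule and Spink4 stood in members at 16.4% to 22.2% of their level in the other gut cells. The rule keeps G below E in members, so it bears on these levels.

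Among themselves the members ranged from Fabp6-rich to Fabp2-rich. Fabp6 was the highest of the 4 E genes in 410 members, Fabp2 in 551, Apoa1 in 4 and Fabp1 in 0, and 13 were tied. As a share of Fabp6 plus Fabp2 UMIs, Fabp6 ran from 0 to 99.2% with a median of 46.0%. Over the 978 cells, which share 1 library and have unequal depth, the shares of Fabp6 and Fabp2 had Pearson's r of -0.03 and Spearman's rho of -0.08. Fabp2 went with Apoa1 (r 0.78, rho 0.75) and Fabp6 with Reg3b (r 0.43, rho 0.52).

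The Fabp6-led and Fabp2-led members were then compared, a split made after the data were seen and on genes of the rule. Their median depths were 1294.5 and 1292 UMIs and their median mitochondrial shares 7.40% and 7.36%. The deepest cells differed: the 90th percentile was 3453 UMIs in Fabp6-led and 2698 in Fabp2-led members and the highest 14075 and 10081, so deep cells carried more of the Fabp6-led sums. Of 3032 genes tested, 62 (2.04%) were higher in Fabp6-led members and 109 (3.59%) lower; the median ratio of all was 1.03. With every cell weighted equally, 46 were higher and 77 lower. Antimicrobial genes were called higher in 4 of 6: Reg3b, Reg3g, Lypd8 and the cytokine Il18. Reg3b was at 15334 CPM in Fabp6-led and 4031 in Fabp2-led members, 3.80-fold higher (3.67 to 3.95). Reg3g was at 3883 and 1528 CPM, and Lypd8 at 1898 and 813. Bile acid genes were called higher in 2 of 6, Slc10a2 at 315 and 128 CPM, 2.46-fold (not called in the 143 members under 5% mitochondrial), and Nr1h4 at 130 and 59.9 CPM, 2.17-fold. The exporter pair had ratios of 1.64 for Slc51a and 1.59 for Slc51b and was not called.

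Fat genes leaned towards the Fabp2-led members. Of 14 tested, 0 were higher and 4 lower in Fabp6-led members. Apoa4, an apolipoprotein of chylomicrons, was at 232 CPM in Fabp6-led and 1945 in Fabp2-led members, 8.37-fold lower (7.21 to 9.81), and Apoc3 was 4.23-fold lower (3.72 to 4.84). Apoc2 was at 801 and 1912 CPM, and Creb3l3, a transcription factor of lipid genes, at 53.9 and 187. Among hydrolases, Sis was 2.02-fold higher, just past the threshold, while Lct, of the proximal list too, was at 142 and 414 CPM and Ace at 114 and 255; Sis was no longer called in 8 of 16 other settings, with log2 ratios down to 0.70. Of 14 brush border genes 1 was called, Plb1, and of 14 general epithelial genes 1, Krt19. Vil1 was at 877 and 854 CPM, Epcam at 3136 and 3436, and 0 of 10 transcription factors were called, Cdx2 being at 158 and 138. The goblet and Paneth genes outside the rule were called in 0 of 4 and 0 of 5. Over all genes tested 2.04% were higher and 3.59% lower. Counts of 0 or 1 in such short lists are near those shares and do not show that the lists were level.

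The 8 genes most raised in Fabp6-led members were S100g, Reg3b, Slc13a1, Cldn2, Tstd1, Krt19, Areg and Reg3g, from 3.92-fold to 2.54-fold. S100g encodes a calcium-binding protein, Slc13a1 a sulfate transporter and Cldn2 a pore-forming claudin. The 8 most lowered were Ly6m, Ada, Apoa4, Enpp3, Ighm, Clca4a, Dnase1 and Apoc3. Of these Ighm turned direction at a mitochondrial limit of 5%, with a log2 ratio of 1.19. Ada and Apoa4 are on the proximal list, of which 3 of 4 tested genes were lower (median ratio 0.202). Of the villus tip list 3 of 4 tested genes were lower (median ratio 0.118), and Ada and Apoa4 were again among them. Over all genes tested 3.59% were lower. For Ly6m, Ada, Enpp3, Ighm and Clca4a, 20.6% to 45.5% of all member UMIs were in 1 cell, and for Apoa4 11.8%. Immunoglobulin transcripts moved with the split, with 3 of 5 B and plasma cell genes tested lower in Fabp6-led members. Igkc was at 321 CPM in Fabp6-led and 1308 in Fabp2-led members, and the part of these transcripts in the other differences was not tested.

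Levels were also read in 5 steps of the Fabp6 share. The steps of 0 to 20%, 20 to 40%, 40 to 60%, 60 to 80% and 80 to 100% held 111, 282, 323, 163 and 99 members, with median depths between 1192 and 1323.5 UMIs. Reg3b was at 1841, 4524, 5345, 11965 and 28155 CPM from the lowest to the highest Fabp6 share. Slc10a2 was at 56.1, 141, 175, 328 and 410 CPM, and its share of cells with a UMI ran from 7.21% to 45.5%. Apoa4 was at 6175, 1181, 437, 283 and 23.0 CPM, with a UMI in 83.8% of members of the first step and 6.06% of the last. An apolipoprotein was thus high at one end and a lectin at the other. Sis was at 578 CPM in the first and 2386 in the last step, Lct at 662 and 38.3, and Vil1 between 834 and 906 CPM in all 5. Krt20 was at 1471 CPM in the first step and between 643 and 797 in the rest. Paneth and goblet transcripts were lowest in the last step, with Defa24, a defensin of the rule, at 463 CPM and Zg16 at 2643; Defa24 was highest in the middle step, at 7150 CPM.

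**Figure D5:**
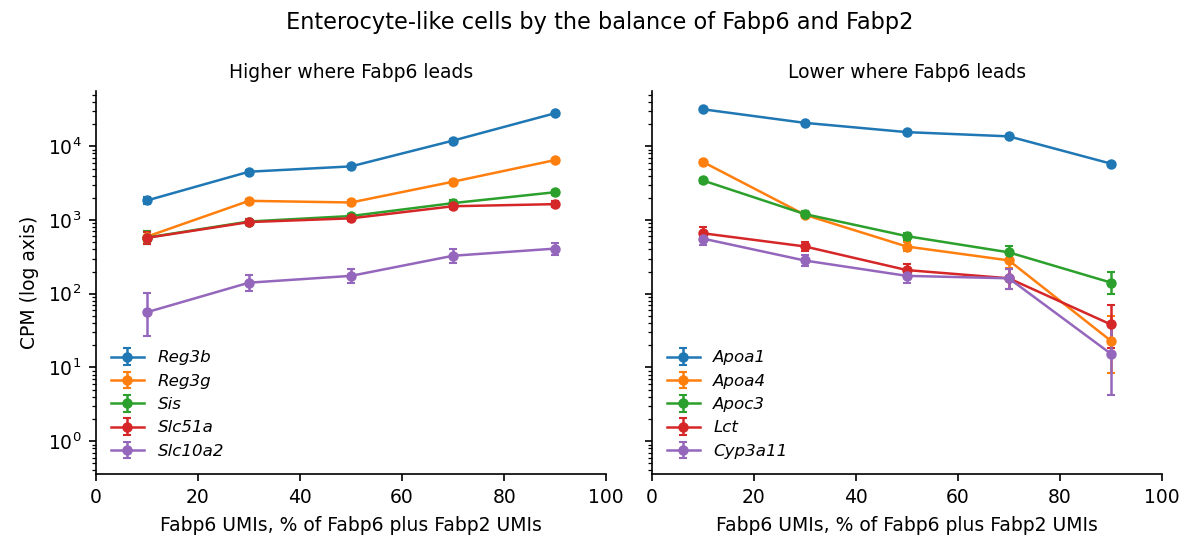
CPM (log axis) of 10 genes in enterocyte-like cells binned by Fabp6 UMIs as a percent of Fabp6 plus Fabp2 UMIs, with exact 95% Poisson intervals; the bins hold 111, 282, 323, 163 and 99 cells. From the first to the last bin Reg3b runs from 1841 to 28155 CPM, Slc10a2 from 56.1 to 410 and Apoa4 from 6175 to 23.0.

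The members also differed in how much of them was E. In 193 members under 5%, 339 at 5 to 8%, 265 at 8 to 12% and 181 at 12% or more, Vil1 was at 473, 777, 929 and 1194 CPM. Fgf15 was at 16.9, 33.5, 55.6 and 86.7 CPM in the same order. Olfm4 ran the other way, at 1478, 549, 374 and 191 CPM, as did Spink4 (6437 to 885 CPM). Reg3b was highest at 8 to 12% (11425 CPM) and lowest at 12% or more (5643 CPM). Since the steps are made from genes of the rule, these orders describe the members. Across the members the E share had r of -0.31 with the G share and -0.32 with the P share, while the G and P shares had r of 0.36.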

How the data were processed

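The deposited files are whole-number UMI counts per gene and barcode for 32285 features in each library, made from single cell 3' v2 libraries per the labels and with Cell Ranger 2.1.1 on mm10 per the submitters' processing notes (the deposited matrix header gives software version 3.0.0, and the 2 statements could not be reconciled). The alignment settings are not given in the labels or headers. From these counts, barcodes were classed by the rule, UMIs summed per class and divided by all UMIs to give CPM with exact Poisson intervals. Ratios of CPM have exact conditional binomial intervals, with 0.5 UMIs added for the ratio itself; shares have Clopper-Pearson intervals, some after thinning to 1000 UMIs (seed 1), and counts of 0 a floor of 3 counts. No test was made, because each genotype has 1 library. The members and the 31 gene lists were chosen with earlier results of these data known, and the Fabp6-led against Fabp2-led split after the data were seen, as were Il18, Ace, Apoc2, Pls1, Cst6 and other genes named singly. Named by rule were the rule's genes, 4 per list by CPM, the 8 most raised and lowered at 100 CPM or more and the 12 most abundant; sex-linked, mitochondrial, ribosomal protein and uncharacterised genes were left out of the 8. The ratio and its interval were tested on simulated counts that had no spread between cells, so the effect of that spread was not tested. Some genes of the lists are not reported here by name. Near-copies, such as the defensins, and antisense overlaps make single counts uncertain. Promoters come from RefSeq on GRCm38.p6. Scripts ran on matplotlib 3.10.9, pandas 2.3.3, scipy 1.17.1, numpy 2.4.6 and Python 3.11.15. Alternatives covered filters, thresholds, scaling and thinning, and those for the Fabp6 split were added after the data were seen.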

Additional observations from a re-analysis of the deposited data

Results flagged for a closer look

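Barcodes outside the members carried the same signal. Of the cKO barcodes over 10% mitochondrial UMIs, 874 met the rest of the rule, against 0 in control. They had a median of 1477.5 UMIs and 13.9% mitochondrial UMIs, and a Fabp6 to Fabp2 ratio of 0.829. A further 935 cKO barcodes under 500 genes met the rest of the rule, again against 0 in control, with a median of 611 UMIs and a ratio of 0.793. Both sets lie in data that the comparisons above do not use. Fabp6 was at 40822 CPM in the first and 33523 CPM in the second set.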

How the results depend on the processing

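No paired analysis was possible because each genotype has 1 library. The number of members was 1777 with a mitochondrial limit of 25% and 143 with 5%, 1911 with at least 300 genes and 228 with at least 1000, and 646 with gut sums of at least 10%; at gut sums of 1% the rule took in 1 control cell. The share led by Fabp6 was 45.6% with 1000 genes and 38.7% with sums of 10%. The E sum, 93399 CPM, was 103859 and 84699 at mitochondrial limits of 25% and 5%, 99576 with 1000 genes, 109183 and 88417 with sums of 10% and 1%, 109913 where E led 2 times, 92184 without the CD3 condition, 84069 without the 10% of members with the most UMIs, 106447 and 112506 with rule genes or mitochondrial and ribosomal protein genes out of the totals, and 86216 with every cell equal. Members with an Epcam UMI were 75.5% thinned to 500 UMIs and 94.99% unthinned.

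Counts of genes against the other gut cells were 757 higher at 5% mitochondrial; 259 higher and 111 lower at 3-fold; 808 and 477 at 20 CPM; and 1150 and 859 with no minimum. Against the CD3-negative cells below 3%, they were 1670 lower without mitochondrial and ribosomal protein genes, 487 lower at 3-fold, 1429 and 1938 at 20 CPM, and 2022 and 3548 with no minimum. For Fabp6-led against Fabp2-led members, they were 95 higher at 5% mitochondrial, 62 lower with 300 genes, 106 and 190 with 1000 genes, 94 higher where E led 2 times, 9 and 22 at 3-fold, 138 and 260 at 20 CPM, 181 and 400 with no minimum, and 182 and 287 where one gene led the other 2 times.

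Ighm turned direction 2 times: its log2 ratio was 1.19 between Fabp6-led and Fabp2-led members at 5% mitochondrial, and -0.40 against the other gut cells at sums of 1%. Counting each gene under each alternative, 27 ratios between Fabp6-led and Fabp2-led members, 4 against the other gut cells and 0 against the CD3-negative cells below 3% lost their call. With the reversal, 11 of these were at 5% mitochondrial, where 143 members are left, Slc10a2, Sis and Ada among them. Ada also lost its call against the other gut cells without the 10% of members with the most UMIs. The causes were not tested. Depth limits low genes: levels under the floor of 1.73 CPM could not be read in members.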
